A study of Mus musculus with 6 samples.

Results

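Type I interferons bind the receptor IFNAR1/IFNAR2, which signals through the kinases JAK1 and TYK2 to transcription factors that include STAT2 and IRF9. These switch on interferon-stimulated genes whose promoters carry an interferon-stimulated response element (ISRE), among them antiviral effectors and the genes of antigen presentation. In the class I pathway, immunoproteasome subunits cut proteins into peptides, TAP1 and TAP2 carry them into the endoplasmic reticulum, and tapasin helps to load them onto a heavy chain such as H2-K or H2-D, which travels to the cell surface together with beta-2 microglobulin. Muscle stem cells (MuSCs), the PAX7-positive cells beneath the basal lamina of myofibers, can carry class I molecules like most nucleated cells, whereas class II molecules are typical of professional antigen-presenting cells.

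Here 45 genes of the interferon response and of class I antigen presentation were followed in MuSCs with and without *Sirt6*, and were taken from the deposited table by their gene symbols. A row was found for 43 of them among 25166 genes, and *Oas1a* and *Oas2* were not analysed here. The series compares 3 libraries labelled Sirt6mKO with 3 libraries labelled Ctrl. In Sirt6mKO mice, Cre recombinase expressed from the *Pax7* locus (Pax7ICN) deletes exons 4 to 6 of a floxed *Sirt6*, so that the loss starts in the whole PAX7 lineage and not at the time of sorting, and the study also names a ROSA26-YFP reporter for this line. The labels call the controls wild type, and a legend of the study calls them Cre-negative littermates of the floxed line. The study kept its mice on a C57BL/6 background, and its legend gives males of 12 weeks. The labels name no injury or treatment. Cells negative for Sca1, CD45 and CD31 and positive for Integrin-a7 and CD34, or for a reporter, were sorted, and RNA of 100 to 200 cells per sample was sequenced. The labels do not say which library came from which animal, so that p-values measure the spread between these samples.

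The values, called signal here, are read counts per gene after division by 1 scaling factor per library and rounding, with 1267027 to 3209964 recovered reads per library, the fewest in Ctrl replicate 3. A single read is worth a signal of 0.729 to 1.79. *Sirt6* had a signal of 19, 20 and 13 in Sirt6mKO and of 18, 17 and 20 in Ctrl, and since the deletion removes only some of its exons, this gene-level value does not check the labels. All 10 MuSC markers of a fixed list were present in every library, whereas *Pax7* itself was lower in Sirt6mKO (log2 fold change -0.84, limma-trend adjusted p = 0.0041). The defining immune marker *Ptprc* (CD45) was not analysed here, and the summed signal of the 7 immune markers in the table was 45 to 92 per library. The summed signal of the MuSC markers was 13898 to 14859 in Sirt6mKO and 16014 to 17627 in Ctrl, with 4 of the 10 lower at an unadjusted p under 0.05 and none higher. *Pax7*, with means of 1986.0 and 3555.0, was the only one past the adjusted p. The log2 fold change was below 0 for 7 of the 10 and above 0 for 3. *Myf5*, *Vcam1*, *Cdh15* and *Spry1* had -0.03, 0.14, 0.04 and 0.04.

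The members that rose encode class I molecules, and the promoters of 5 class I heavy chains share a short stretch. Those of the other tested heavy chains, *H2-T10*, *H2-T22*, *H2-T23* and *H2-M3*, which did not pass the test, were not compared. In the RefSeq promoters of GRCm38.p6, which run from 250 bases before to 50 bases after a transcription start, a search on both strands used a full ISRE form, GAAANNGAAA, and a form with 1 shortened box, GAANNGAAA. Below are 30 bases of the gene's own strand that end with the last base of the match, with the match in capitals. The 5 heavy chains that were compared come first, 4 of which passed the test described next and 1, H2-K1, did not. Beta-2 microglobulin and the 3 guanylate-binding proteins follow.
H2-D1 (chr17:35262923-35262952, plus strand): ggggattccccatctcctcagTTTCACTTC
H2-K1 (chr17:34000429-34000458, minus strand): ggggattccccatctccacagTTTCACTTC
H2-Q4 (chr17:35379443-35379472, plus strand): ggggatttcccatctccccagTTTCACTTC
H2-Q6 (chr17:35424677-35424706, plus strand): ggggattccccatctccccagTTTCACTTC
H2-Q7 (chr17:35439021-35439050, plus strand): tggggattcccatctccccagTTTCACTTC
B2m (chr2:122147528-122147557, plus strand): acgggactttataagaacatGAAACTGAAA
Gbp2 (chr3:142620584-142620613, plus strand): ccagttaggaactcttttagTTTCACTTTC
Gbp3 (chr3:142559985-142560014, plus strand): atgtcaggacacagTTTCAGTTTCTATTTC
Gbp7 (chr3:142530268-142530297, plus strand): agcctgtgtgtgcagTTTCAGTTTCAGTTC

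Compared with the stretch of *H2-D1*, 29 of the 30 bases were identical in *H2-K1* and *H2-Q6*, 28 in *H2-Q4* and 25 in *H2-Q7*, aligned without gaps on the match. All 5 heavy chains carry the same shortened form. In *Gbp3* and *Gbp7* there were 2 overlapping matches each, and *B2m* and *Gbp2* carry the full form. Of the 45 members, 35 had a RefSeq promoter, and 24 of these (68.6%) held at least 1 of both forms, whereas 11.9% of all 27025 genes with a promoter did. The full form was found in 16 members as against 4.0% of all genes, and the shortened form in 14 members as against 8.7%. A CCAAT box was found in 14 of the 35 members and in 41.1% of all genes. The members were put together from known genes of the interferon response, and a match is a description of the letters and not of binding. Among the roles, none of the 2 receptor subunits and none of the 4 peptide supply and loading genes with a promoter held either form, whereas all 3 class I molecules and all 3 guanylate-binding proteins did.

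Does the loss of *Sirt6* alter the interferon and antigen presentation genes of MuSCs? Log2(signal + 1) was fitted with limma-trend for 14227 genes whose mean signal reached 5, which included 40 members, and p-values were adjusted after Benjamini and Hochberg. With an adjusted p up to 0.05 and a 2-fold or larger change required, *H2-D1* was higher and *Gbp3* was lower in Sirt6mKO. Over all tested genes, 1.57% were higher and 1.02% lower by this rule, so that 1 member in each direction among 40 is near the background. At the adjusted p alone *B2m* was added, which made 2 members higher and 1 lower, as against 2.64% and 1.88% of all tested genes. The median log2 fold change of the 40 members was 0.05, beside 0.00 for all tested genes. Of the tested members, 22 tended to higher and 18 to lower values in Sirt6mKO. Groups without overlap were found for 6 members with higher and 3 with lower values in Sirt6mKO, where 11.1% and 10.1% of all tested genes showed such a separation. At an unadjusted p under 0.05, 6 of the 40 members were higher and 2 lower, and of all tested genes 9.97% were higher and 8.14% lower, the shares against which the unadjusted counts of each group below can be read. With 3 libraries against 3, an exact two-sided permutation test of a single gene cannot go below 0.1.

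**Figure D1:**
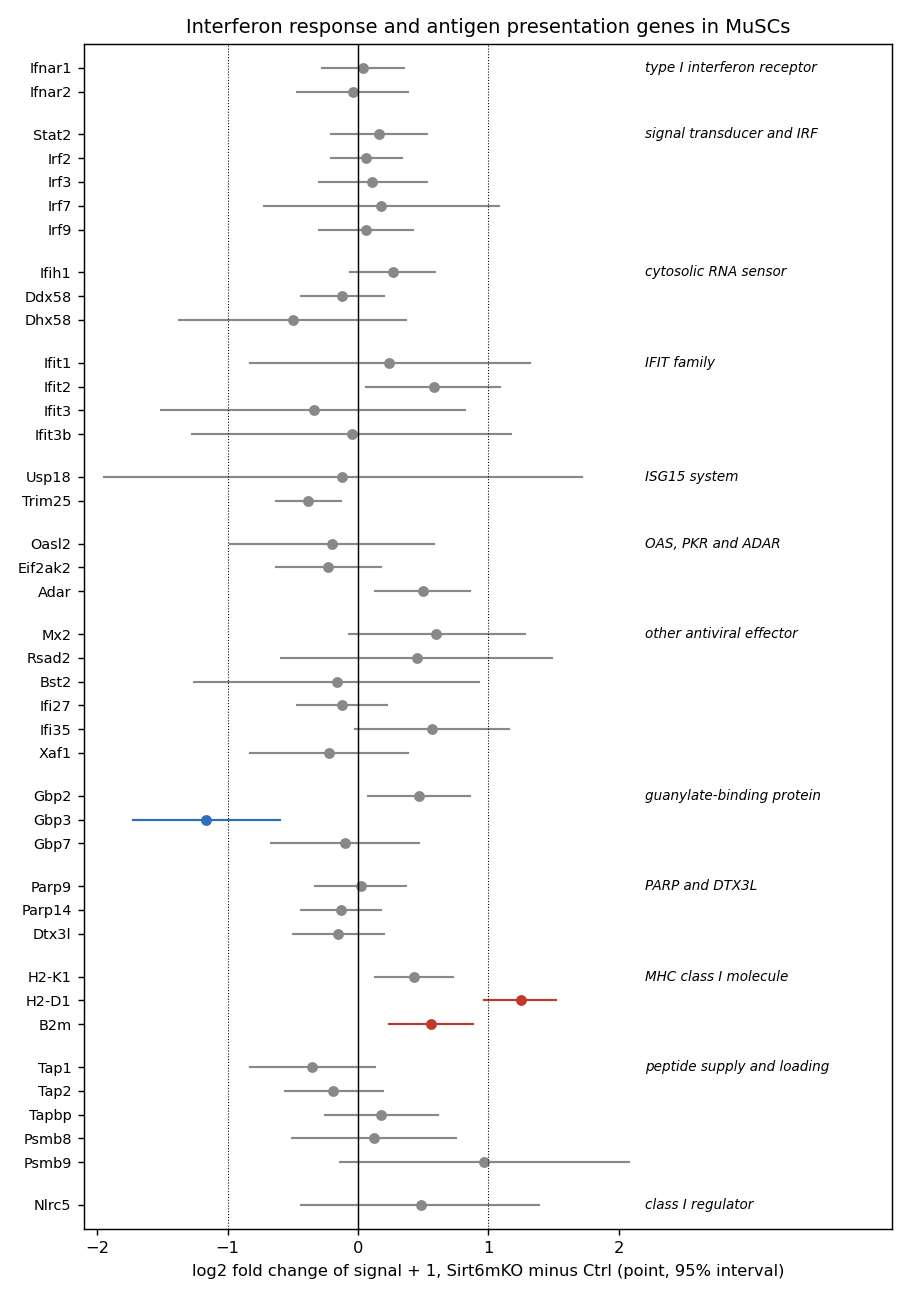
Log2 fold change of signal + 1 (Sirt6mKO minus Ctrl, x axis) of the 40 tested members, ordered by role, with points for the estimate and bars for the 95% interval of limma-trend. Red marks higher and blue lower members at an adjusted p of at most 0.05, grey the others, and dotted lines a 2-fold change. H2-D1 at 1.25 and B2m at 0.56 lie right of 0 and Gbp3 at -1.17 left of it.

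*H2-D1* (ENSMUSG00000073411, chromosome 17, 35262730 to 35267499, plus strand) encodes a classical class I heavy chain. Its signal was 759, 668 and 699 in Sirt6mKO replicates 1 to 3 and 337, 310 and 253 in Ctrl replicates 1 to 3. Every Sirt6mKO library was thus well above every control, and the means were 708.67 ± 46.26 and 300.0 ± 42.88 (SD, n = 3 each). The fold change was 2.37, or 1.25 on the log2 scale of signal + 1 (standard error, SE, of 0.13, 95% interval 0.97 to 1.52, limma-trend adjusted p = 0.00017). When each library was left out in turn, the log2 fold change stayed between 1.13 and 1.33, and the adjusted p stayed at or under 0.006 in all 17 alternative fits. Of the 75-base windows of its longest transcript, the read length in the labels, 7.1% also occur in transcripts of other genes. The authors left out reads that lie on several regions.

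*B2m* (ENSMUSG00000060802, chromosome 2, 122147686 to 122153083, plus strand) encodes beta-2 microglobulin, the invariant light chain of all classical class I molecules. It had a signal of 263, 232 and 196 in Sirt6mKO and of 178, 147 and 142 in Ctrl. The groups were separate by a small margin. The log2 fold change was 0.56 (SE 0.15, 95% interval 0.24 to 0.88, limma-trend adjusted p = 0.049). This call is at the threshold and was kept in 7 of 17 alternative fits, with an adjusted p between 0.024 and 0.24, and it was lost without Sirt6mKO replicate 1 or 2 or without Ctrl replicate 2 or 3.

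*H2-K1* (ENSMUSG00000061232, chromosome 17, 33996017 to 34000347, minus strand) encodes the other classical heavy chain of this mouse strain. Its signal of 400, 333 and 330 in Sirt6mKO did not overlap with 280, 292 and 220 in Ctrl. The log2 fold change was 0.43 (SE 0.14, 95% interval 0.13 to 0.73), with an unadjusted p of 0.0084 and a limma-trend adjusted p of 0.11, which did not pass. The intervals of *H2-D1* and *H2-K1* did not overlap, and the difference between both genes was not tested. Per kilobase of annotated exon, the level of *B2m* was the highest of all tested members in the controls at 181.01, followed by *H2-D1* at 116.32 and *H2-K1* at 89.86. In Sirt6mKO the per-kilobase level of *H2-D1* was 274.78, that of *B2m* 267.83 and that of *H2-K1* 120.6.

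**Figure D2:**
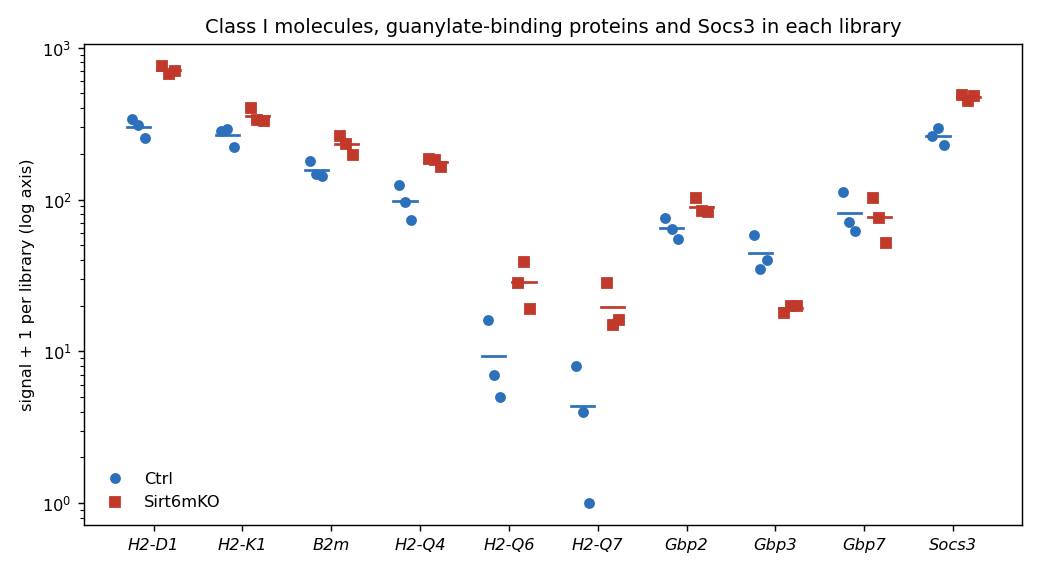
Signal + 1 (log axis) of class I molecules, guanylate-binding proteins and Socs3 in each library. Circles are Ctrl and squares Sirt6mKO libraries, and lines are group means. The groups do not overlap for H2-D1 (253 to 337 in Ctrl, 668 to 759 in Sirt6mKO), H2-K1, B2m, H2-Q4, H2-Q6, H2-Q7, Gbp2, Gbp3 or Socs3, whereas they overlap for Gbp7.

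The other class I heavy chains were read from a list of 28 further class I and loading genes, of which 27 had a row and 20 were tested. Among these, 3 rose at the adjusted p and none fell, as against 2.64% and 1.88% of all tested genes. Of the 3, 2 also passed the fold threshold. All 3 are nonclassical heavy chains of the Q region. *H2-Q4* had a signal of 185, 180 and 162 in Sirt6mKO and of 123, 95 and 72 in Ctrl (log2 fold change 0.89, SE 0.18, limma-trend adjusted p = 0.015). *H2-Q6* had 27, 38 and 18 as against 15, 6 and 4 (1.74, SE 0.44, adjusted p = 0.045), and *H2-Q7* had 27, 14 and 15 as against 7, 3 and 0 (2.57, SE 0.66, adjusted p = 0.045). No control library reached the lowest Sirt6mKO library in any of these genes. *H2-Q6* and *H2-Q7* each kept their call in 9 of 16 alternative fits, since a mean of at least 50 left both genes out, and in 1 of 6 fits without a library, *H2-Q4* in 14 of 17 and in 3. Of the 75-base windows of *H2-Q4*, *H2-Q6* and *H2-Q7*, 21.29, 21.08 and 19.11% also occur in transcripts of other genes, where reads were left out, so that their counts are uncertain.

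Among heavy chains with a mean signal under 5, which were not tested, 3 also had separate groups. *H2-Q1* had 8, 9 and 3 in Sirt6mKO and 0, 1 and 0 in Ctrl, at least 1.78-fold higher against a floor of 3 reads per library. *H2-Q2* had 7, 4 and 3 and *H2-Bl* 7, 4 and 2, with 0 in all controls, at least 1.24-fold and 1.16-fold higher by the same floor. In these 3 genes, Sirt6mKO replicate 3 was itself at or under the floor. *H2-Q10*, *H2-T3* and *H2-T24* had overlapping groups. In the T and M regions, by contrast, nothing passed the adjusted p, and the direction was mixed: *H2-M3* had a log2 fold change of 0.91 (limma-trend adjusted p = 0.12), *H2-T10* of 0.60 (adjusted p = 0.33), *H2-T23* of 0.30 (adjusted p = 0.61) and *H2-T22* of -0.70 (adjusted p = 0.13). *H2-T22* had 50, 31 and 29 in Sirt6mKO and 54, 69 and 54 in Ctrl, and 46.25% of its 75-base windows are shared with other genes. Over the 9 tested heavy chains of both lists, 8 had a log2 fold change above 0 and the median was 0.89. All 20 tested genes of the further list had a median of 0.03, with 11 above and 9 below 0. *Cd1d1*, *Mr1*, *Hfe* and *Fcgrt* of that list were not counted among the 9, at 0.26, -0.16, -0.32 and 0.03. Nor was *H2-Q5*, which is on neither list, at 0.45. These 9 include *H2-Q7*, which was tested only through its signal in Sirt6mKO. Heavy chains that did not pass the adjusted p were chosen for naming after their values were seen.

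The heavy chains that rose lie close to each other. Between *H2-D1* and *H2-Q7* (chromosome 17, 35262730 to 35443773 of GRCm38), 7 genes were tested, and all 7 had a log2 fold change above 0. At the adjusted p, 5 of them were higher. Beside *H2-D1* and the 3 Q genes, the fifth was *Gm8741* (27, 17 and 22 in Sirt6mKO, 4, 8 and 0 in Ctrl), of whose 75-base windows 71.94% also occur in transcripts of other genes, among them *Snu13*. *H2-Q5* had 7, 16 and 7 as against 16, 4 and 4, and *Gm11131*, which overlaps *H2-Q4* on the other strand, had 10, 4 and 15 as against 7, 5 and 5. In the 1 Mb before *H2-D1*, none of 43 tested genes passed limma-trend's adjusted p in either direction, with 3 higher and 2 lower at an unadjusted p under 0.05. In the 1 Mb after *H2-Q7*, 2 of 30 were higher, *Ier3* and *BC023719*, as against 2.64% of all tested genes. At an unadjusted p under 0.05, 6 of the 30 were higher and 1 lower. *BC023719*, which overlaps *H2-T10* on the other strand, had 13, 11 and 15 in Sirt6mKO and 0 in every control, at least 3.47-fold higher. The stretch from *H2-D1* to *H2-Q7* and the genes in it that are on no list were chosen after their values were seen. Both of its ends are genes already called higher, so that its count is partly fixed in advance and cannot be set against the share over all tested genes. *H2-Q7*, *Gm8741* and *BC023719* had control means of 3.33, 4.0 and 0.0, and reached the mean signal of 5 only through Sirt6mKO. *Sirt6* itself lies on chromosome 10 and *B2m* on chromosome 2.

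**Figure D3:**
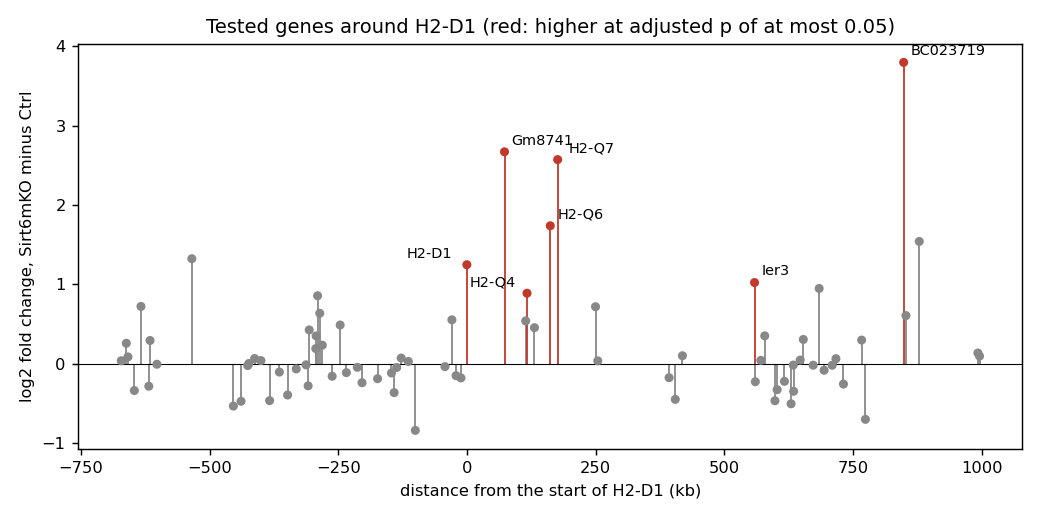
Log2 fold change (Sirt6mKO minus Ctrl, y axis) of each tested gene within 1 Mb of the stretch from H2-D1 to H2-Q7, by the distance of its start from that of H2-D1 in kb (x axis). Red marks genes that were higher at an adjusted p of at most 0.05 and grey all others. The red genes H2-D1 (1.25), Gm8741 (2.67), H2-Q4 (0.89), H2-Q6 (1.74) and H2-Q7 (2.57) stand together, and Ier3 (1.02) and BC023719 (3.80) lie farther along.

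The genes that supply and load peptides did not pass the test in either direction. Among these 5 genes, limma-trend and limma voom on the recovered reads called 0, and 0 had an unadjusted p under 0.05. *Tap1*, a subunit of the peptide transporter, had a signal of 41, 40 and 33 in Sirt6mKO and of 63, 42 and 43 in Ctrl, with every control above every Sirt6mKO library (log2 fold change -0.35, SE 0.22, limma-trend adjusted p = 0.46). Its partner *Tap2* had 82, 94 and 75 as against 102, 109 and 77, which overlapped. *Tapbp*, the gene of tapasin and the highest of the group per kilobase of exon, had 212, 226 and 186 as against 199, 241 and 127. The immunoproteasome subunit *Psmb8* had 22, 18 and 19 as against 18, 23 and 14. *Psmb9*, the lowest of the group per kilobase and on the other strand over *Tap1*, had 17, 10 and 9 as against 7, 10 and 2 (log2 fold change 0.97, 95% interval -0.14 to 2.08, limma-trend adjusted p = 0.35). For the other 4 genes the 95% interval lay within a 2-fold change. *Nlrc5*, the transactivator of class I genes, was low in all libraries, at 8, 8 and 6 as against 6, 4 and 5 (log2 fold change 0.48, 95% interval -0.44 to 1.39).

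Chaperones of the loading complex gave a similar picture. The genes with the highest signal on the further class I list, without regard to length, were *Calr*, with 1611, 1212 and 1270 in Sirt6mKO and 1371, 1775 and 1515 in Ctrl, *Canx* (log2 fold change 0.03) and *Pdia3* (-0.31, limma-trend adjusted p = 0.20), none of which passed. For class II presentation, 13 of 14 listed genes had a row, and 4 were tested. The class II chains *H2-Aa*, *H2-Ab1* and *H2-Eb1* had a signal of at most 2 in any library. *Rfx5*, a subunit of the RFX factor that binds promoters of both classes, had 130, 141 and 140 in Sirt6mKO and 194, 233 and 169 in Ctrl. Its log2 fold change of -0.52 missed the threshold (limma-trend adjusted p = 0.059), and it was below 0.05 in 4 of 17 alternative fits. *Rfxank* and *Rfxap*, the other subunits, had 47, 53 and 40 as against 44, 43 and 43 and 58, 46 and 43 as against 61, 44 and 50, with overlap.

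Upstream, the receptor and its signalling genes differed little. *Ifnar1* had a signal of 253, 291 and 238 in Sirt6mKO and of 261, 299 and 208 in Ctrl, and *Ifnar2* of 59, 48 and 60 as against 65, 61 and 47. Their log2 fold changes were 0.04 (95% interval -0.28 to 0.35) and -0.04 (-0.47 to 0.38), so that a 2-fold change lay outside both intervals. *Stat2* and *Irf9*, which act together in the DNA-binding complex of the pathway, had log2 fold changes of 0.16 and 0.06. *Irf2*, known as a repressor of interferon-stimulated genes, had 216, 248 and 207 as against 225, 225 and 192. *Irf3* had a log2 fold change of 0.11. *Irf7*, which amplifies the response and is itself induced by interferon, was the lowest per kilobase of exon, with a signal of 18, 7 and 9 as against 10, 11 and 7. None of these 5 genes had an unadjusted p under 0.05, and limma voom called 0 as well.

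Of 24 further receptors, kinases and regulators, 20 were tested, and 1 rose at the adjusted p, as against 2.64% of all tested genes. This was *Socs3* (ENSMUSG00000053113, chromosome 11, 117966079 to 117970047), which encodes an inhibitor of cytokine receptors that use JAK kinases and is induced by STAT3. The libraries had 487, 446 and 481 in Sirt6mKO and 262, 295 and 229 in Ctrl, with no overlap between groups. The log2 fold change was 0.85 (SE 0.12, limma-trend adjusted p = 0.0019), and the call held in all 17 alternative fits. The genes with the highest signal on this list were *Jak1*, with 874, 812 and 815 as against 733, 634 and 615 (0.34, adjusted p = 0.11), *Ptpn11* with 471, 444 and 460 as against 494, 574 and 506 (-0.19, adjusted p = 0.38), and *Stat3* with 537, 554 and 438 as against 405, 453 and 430 (0.24, adjusted p = 0.32). None of the 3 passed limma-trend's threshold. Of 18 interferon genes on the list of ligands, 6 had a row, and none exceeded a signal of 4 in any library, so that no change was detectable at this depth.

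Sensors of viral RNA did not pass the test. *Ifih1*, the gene of MDA5, had a signal of 161, 163 and 161 in Sirt6mKO and of 157, 110 and 140 in Ctrl, separate by a small margin (log2 fold change 0.27, SE 0.15, limma-trend adjusted p = 0.38). *Ddx58*, the gene of RIG-I, had 137, 152 and 120 as against 165, 152 and 129. *Dhx58*, the gene of their regulator LGP2, had a low signal of 15, 14 and 6 as against 20, 11 and 18. Of 28 further genes that sense nucleic acids, 22 were tested and none passed limma-trend's adjusted p, with 2 higher and 4 lower at an unadjusted p under 0.05. The highest signal among them was that of *Dhx9*, with 873, 824 and 980 as against 903, 801 and 955. *Unc93b1*, which brings Toll-like receptors to endosomes, had 317, 315 and 321 as against 287, 268 and 229 (log2 fold change 0.29, limma-trend adjusted p = 0.22). *Cyld*, a deubiquitinase, had 260, 302 and 285 as against 228, 255 and 190 (0.34, adjusted p = 0.20). Both had separate groups with higher values in Sirt6mKO, as the only 2 of these 22 genes, and 5 had separate groups with lower values. Over all tested genes, 11.1% were separate with higher and 10.1% with lower values.

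**Figure D4:**
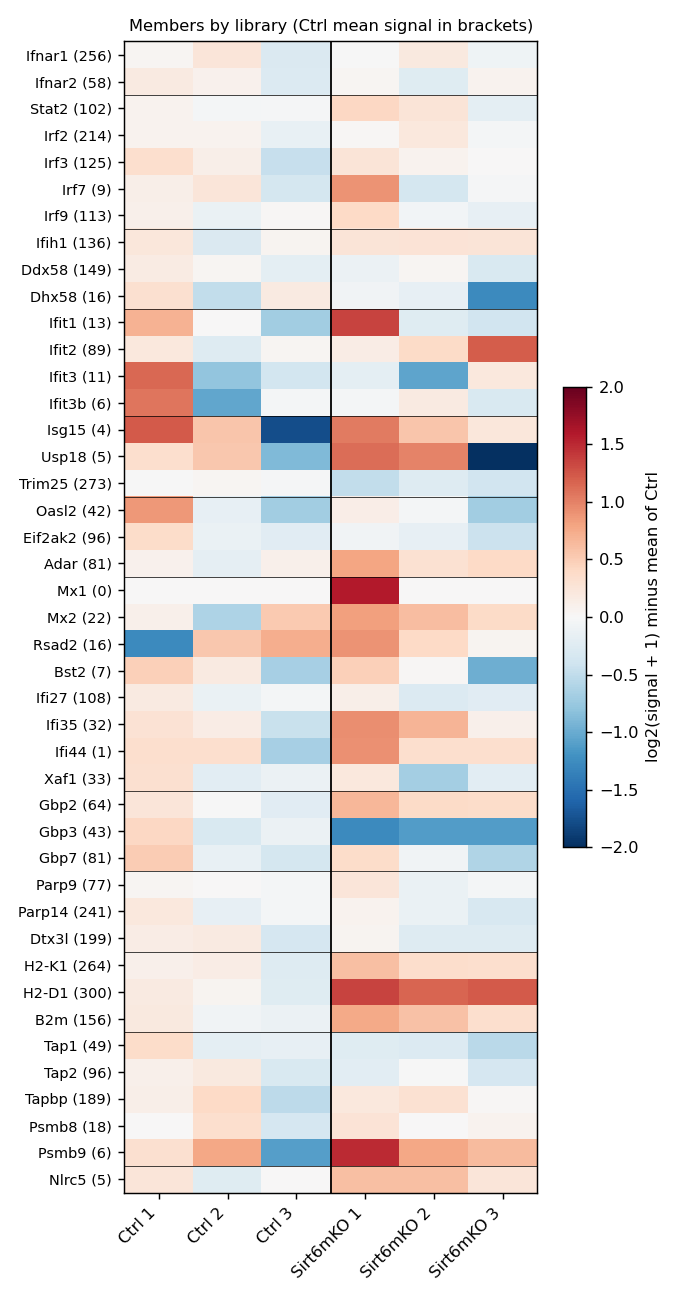
Log2(signal + 1) of the 43 members with a row in each library (columns), minus the mean of the 3 Ctrl libraries, from blue (-2) to red (2). Horizontal lines part the roles, and brackets give the mean Ctrl signal. H2-D1 and B2m are red in all 3 Sirt6mKO columns and Gbp3 is blue, and the rows of Mx1 and Ifi44 rest on signals of at most 2.

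The antiviral effectors showed no common direction. Of 26 effectors in 6 groups, 24 had a row and 21 were tested. None rose at the adjusted p by limma-trend or by limma voom, 1 fell, and 3 were higher and 2 lower at an unadjusted p under 0.05, where shares of 9.97% and 8.14% were seen over all genes. Their log2 fold changes ran from -1.17 to 0.60 with a median of -0.12. For 11 of the 21 the 95% interval lay within a 2-fold change. For the others, mostly genes with a low signal, the interval reached beyond a 2-fold change.

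In the guanylate-binding protein family, GTPases that attack the vacuoles of intracellular pathogens, 1 of 3 members passed the test. *Gbp3* (ENSMUSG00000028268, chromosome 3, 142560026 to 142573209) had a signal of 17, 19 and 19 in Sirt6mKO and of 57, 34 and 39 in Ctrl, so that all Sirt6mKO libraries were far below those of Ctrl. This gave a log2 fold change of -1.17 (SE 0.26, 95% interval -1.73 to -0.60, limma-trend adjusted p = 0.024). The sign held without each library (-1.32 to -0.95), but the adjusted p rose up to 0.11 and passed in 2 of these 6 fits, without Ctrl replicate 2 or 3. Its neighbour *Gbp2* had 101, 83 and 82 as against 75, 63 and 54, with separate groups (log2 fold change 0.47, SE 0.18, limma-trend adjusted p = 0.18). *Gbp7* had 101, 74 and 51 as against 111, 70 and 61, and its groups overlapped. *Gbp3* shares 2.68% of its 75-base windows with *Gbp7*.

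In the ISG15 system, *Trim25*, a ubiquitin ligase that activates RIG-I, had a signal of 193, 227 and 208 in Sirt6mKO and of 272, 279 and 267 in Ctrl. The groups were separate, but the log2 fold change of -0.38 (SE 0.12) did not pass (limma-trend adjusted p = 0.091, from 0.070 to 0.30 over the alternatives). *Usp18*, which removes ISG15 and dampens the receptor, had 11, 10 and 0 as against 6, 7 and 2, and *Isg15* itself had 6, 4 and 3 as against 7, 4 and 0 and was not tested. In the group of OAS, PKR and ADAR, *Adar*, which edits adenosine in double-stranded RNA, had 140, 99 and 106 as against 85, 71 and 86, also with separate groups (0.50, SE 0.17, limma-trend adjusted p = 0.14). Of its 75-base windows, 18.51% occur in *Chrnb2*, which overlaps it on the other strand. *Eif2ak2*, the gene of PKR, had 90, 84 and 70 as against 122, 86 and 81, and *Oasl2* 42, 37 and 23 as against 70, 34 and 23, both with overlap.

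Among the IFIT genes, which bind foreign RNA, *Ifit2* was the highest per kilobase of exon, with a signal of 98, 115 and 205 in Sirt6mKO and 102, 74 and 91 in Ctrl. Its log2 fold change of 0.58 (SE 0.24, limma-trend adjusted p = 0.22) was lowest at 0.26 when the library with 205 was left out. *Ifit1* had 32, 10 and 9 as against 20, 12 and 7, *Ifit3* 8, 4 and 11 as against 22, 5 and 7, and *Ifit3b* 5, 6 and 4 as against 12, 2 and 5. The last 2 share 41.11 and 35.67% of their windows with each other and are uncertain. In Sirt6mKO replicate 1 and Ctrl replicate 1, *Ifit1* and *Oasl2* were the highest of their groups. By contrast, *Ifit2* was the lowest of its group in Sirt6mKO replicate 1, and *Rsad2* in Ctrl replicate 1 (5 as against 20 and 23). The median deviation of the 40 tested members from the control mean was 0.248 and 0.203 on the log2 scale in these 2 libraries, and between -0.21 and 0.03 in the other 4.

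Of the other effectors, *Ifi27* was the highest per kilobase of exon, with a signal of 116, 89 and 92 in Sirt6mKO and 121, 98 and 104 in Ctrl. *Mx2*, *Ifi35* and *Rsad2* had log2 fold changes of 0.60, 0.57 and 0.45, and *Xaf1* and *Bst2* of -0.22 and -0.16, with adjusted p of limma-trend between 0.29 and 0.91. *Mx1* had a signal of 2 in 1 Sirt6mKO library and 0 in the other 5 libraries, and *Ifi44* one of at most 2, so that neither can be compared. *Parp9*, *Parp14* and *Dtx3l*, which modify proteins by ADP-ribose and ubiquitin, had log2 fold changes of 0.02, -0.13 and -0.15, each with a 95% interval within a 2-fold change.

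**Figure D5:**
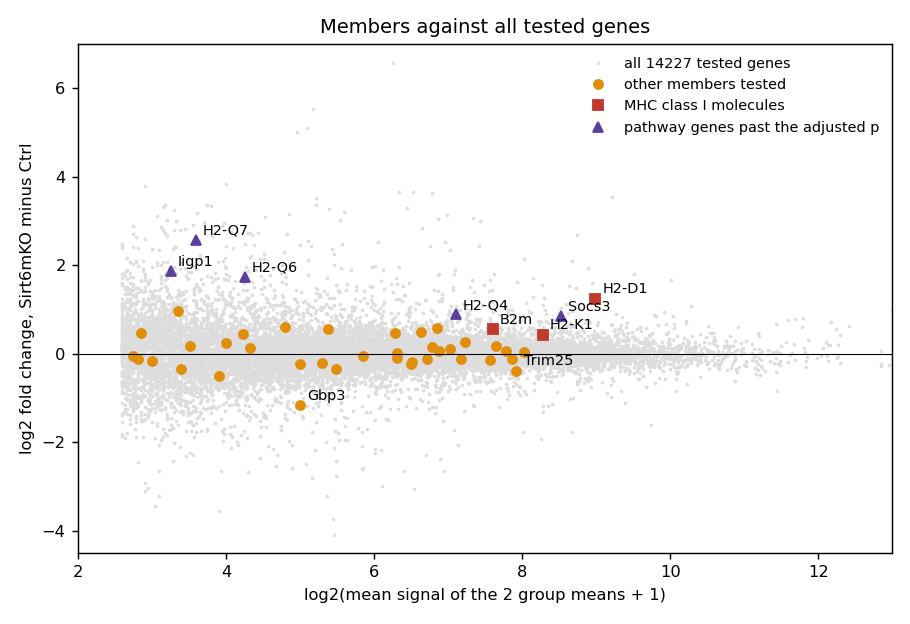
Log2 fold change (Sirt6mKO minus Ctrl, y axis) against log2 of the mean signal + 1 (x axis) for all 14227 tested genes (grey). Squares are the 3 MHC class I molecules, circles the other tested members and triangles the 5 pathway genes past the adjusted p. H2-D1 at 1.25 stands above the grey band at its level, whereas most members lie within it.

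On a longer list of 71 other interferon-stimulated genes, 59 had a row and 43 were tested. At the adjusted p, 1 of the 43 was higher, as against 2.64% of all tested genes. The median log2 fold change was -0.01, with 3 higher and 3 lower genes at an unadjusted p under 0.05. The higher gene was *Iigp1*, a GTPase related to the guanylate-binding proteins, with 17, 11 and 13 in Sirt6mKO and 6, 2 and 2 in Ctrl (1.86, SE 0.47, limma-trend adjusted p = 0.042). It was kept in 8 of the 16 alternative fits that tested it, and limma voom called none of this list. With a control mean of 3.33, *Iigp1* reached the mean signal of 5 only through Sirt6mKO. The genes with the highest signal on the list were *Rnf213* with 949, 897 and 812 as against 919, 1007 and 834, *Ifrd1* with 556, 591 and 648 as against 398, 403 and 568 (0.41, limma-trend adjusted p = 0.14), and *Zc3hav1* (-0.04). Over all pathway lists, 109 genes were tested, 5 rose at the adjusted p and none fell, with a median of 0.00. Of all tested genes, 2.64% were higher and 1.88% lower at this threshold. Of these 5, 3 were the class I heavy chains named before. Among the 5, *H2-Q7* and *Iigp1* were tested only through their signal in Sirt6mKO.

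Some markers of other cells were also higher in Sirt6mKO. Of 10 fibroblast markers 7 were tested, and 3 of them were higher in Sirt6mKO by limma-trend. *Col1a2* had 782, 1299 and 1162 as against 173, 63 and 65 (limma-trend adjusted p = 8.5e-05). *Col1a1* had 420, 1063 and 645 as against 487, 128 and 81, with overlap (limma-trend adjusted p = 0.047). *Pdgfra* had 14, 22 and 38 as against 9, 4 and 2 (limma-trend adjusted p = 0.027). The call was kept in all 17 alternative fits for *Col1a2*, in 8 of 17 for *Col1a1* and in 10 of 16 for *Pdgfra*. Without 1 library in turn, *Col1a1* and *Pdgfra* each kept it in 1 of 6 fits. The summed fibroblast list was 9467 to 11563 in Sirt6mKO and 6561 to 10220 in Ctrl, and was mostly *Col3a1*, whose log2 fold change was 0.06. All 7 tested fibroblast markers had a log2 fold change above 0, 6 of them were higher at an unadjusted p under 0.05, and their median was 1.39. *Ly6a* (Sca1) was at 0 in 2 libraries of each group. None of the 3 tested endothelial markers and neither of the 2 tested immune markers passed limma-trend's adjusted p, with 1 endothelial marker lower at an unadjusted p under 0.05. The summed endothelial list was 383 to 459 in Sirt6mKO and 479 to 580 in Ctrl, and that of immune markers 49 to 92 and 45 to 83. The endothelial sum was mostly *Tek* (349, 412 and 367 as against 454, 562 and 430), which was the lower marker. *Pecam1* and *Esam*, the other tested endothelial markers, had log2 fold changes of 1.05 and 0.15. The part of other cells in the class I result was not tested. In such bulk samples, fewer cells of a type and less RNA per cell cannot be told apart.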

How the data were processed

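RNA-seq of sorted MuSCs from 3 Sirt6mKO and 3 Ctrl samples was used, grouped by their labels. The deposited signal is, as read from its gaps, reads per gene divided by a size factor per library and rounded by the authors. Per the labels, libraries were made with RiboGone and a SMARTer stranded kit, whereas the methods name RiboMinus and an Ion kit. Reads were aligned to mm10 with STAR and counted with featureCounts, and reads on several genes or regions were left out. The processing notes name STAR 2.7.10a and featureCounts 2.0.2. Use of strand in counting is not given in the sources used here, so that genes overlapping on both strands cannot be told apart.

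The members, gene lists and tests were chosen with earlier results of these data known. All 43 members with a row were described, with values per library for those past the adjusted p, with separate groups, at the extremes of a role or in the receptor, class I and sensor roles, and of the pathway lists those past the adjusted p and the 3 with the highest signal. Genes were tested with limma-trend (limma 3.58.1, R 4.3.3) on log2(signal + 1) at a mean signal of at least 5, with Benjamini-Hochberg adjustment over all 14227 tested genes, a fit checked on simulated data. A fold change on this scale understates that of low genes. Floors are 3 reads per library and cover counting error only. Promoters came from RefSeq (GRCm38.p6), and exon lengths and transcripts from GENCODE M21, in which 99.7% of identifiers were found. Python 3.11.15, numpy 2.4.6, pandas 2.3.3 and matplotlib 3.10.9 were used. Alternatives were other scalings, filters, pseudocounts, thresholds, limma voom, a replicate block and leaving out each library. They were extended to the pathway lists after seeing the data.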

Additional observations from a re-analysis of the deposited data

How the results depend on the processing

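Over 17 alternative fits, *H2-D1* was the 1 member higher by both thresholds in each of them. Of 662 values of members under the alternatives, 648 stayed on their side of the adjusted p of 0.05, 14 lost it (*B2m* or *Gbp3*), and none gained it or changed direction with a call. The count of members higher at the adjusted p alone was 1 instead of 2 with size factors by median ratios, scaling by library total, no filter, a mean of at least 1 or 50, a pseudocount of 0.1 or an adjusted p of at most 0.01. The count of lower members was 0 instead of 1, with or without the fold threshold, at a mean of at least 50, which removed *Gbp3*, and at an adjusted p of at most 0.01. Without 1 library in turn, 1 to 2 members were higher and 0 to 1 lower at the adjusted p, and 0 to 1 lower by both thresholds. The count of lower members was 0 without Sirt6mKO replicate 1, 2 or 3 or Ctrl replicate 1. The median log2 fold change of the members ran from -0.092 without Ctrl replicate 3 and -0.087 without Sirt6mKO replicate 1 to 0.155 without Sirt6mKO replicate 3, so that its sign is not settled.

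Of the pathway genes, 5 were higher at the adjusted p. This count was 3 with no filter, 8 at a mean of at least 1, 2 at a mean of at least 50, 2 with a pseudocount of 0.1 and 1 at an adjusted p of at most 0.01. It ran from 1 to 6 without 1 library, with 1 without Sirt6mKO replicate 1 or 2, 2 without Sirt6mKO replicate 3 or Ctrl replicate 2 and 3 without Ctrl replicate 3. The count of lower pathway genes was 1 instead of 0 with upper quartile scaling, scaling by library total, the replicate block and limma voom, and ran from 0 to 1 without 1 library. Causes were not tested unless named.

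With the replicate number as a block, 2 members were higher and 1 lower at the adjusted p, as without it. The numbers do not pair the samples: same-numbered libraries correlated at 0.023, 0.066 and 0.188 in their deviations from the group means, and Sirt6mKO replicates 2 and 3 correlated best with their own number, whereas replicate 1 correlated best with Ctrl replicate 2, at 0.073. Depth limits the low members most, and Ctrl replicate 3, with 1267027 reads, has the coarsest values.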
